A study of Homo sapiens with 6 samples.

Results

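A set of 9 secreted inflammatory signals and the enzyme PTGS2 was followed at the RNA level in MDA-MB-231, an established human triple-negative breast cancer line. The genes were taken from a fixed list of symbols (CXCL8, CXCL1, CXCL2, CXCL3, IL6, IL1A, IL1B, CSF2, LIF and PTGS2), matched through their gene IDs, and all 10 were found among the 58174 gene IDs of the deposited table, with 38 of its 199167 transcripts. The study compared control cells (NC) with 2 groups labelled as knockouts of ARID1A, a subunit of the BAF chromatin remodelling complex, here called KO1 and KO2 after their labels. All 3 groups are the same cell line, and no treatment or time is given. GEO lists 6 samples, 2 per group, but the table has 1 column per group for each unit and no replicate number. There is therefore no spread between replicates for any value, and the brackets below are exact 95% intervals that cover counting error only. Whether each knockout group is a single clone or a pool is not given in the sources used here.

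In the deposited table (hg38) CXCL8 (ENSG00000169429) and CXCL1 (ENSG00000163739) lie on the plus strand of chromosome 4, at 73740506 to 73743716 and 73869393 to 73871242. CXCL3 (ENSG00000163734) and CXCL2 (ENSG00000081041) follow on the minus strand at 74036589 to 74038807 and 74097035 to 74099293. IL6 (ENSG00000136244) is on the plus strand of chromosome 7 at 22725884 to 22732002, and CSF2 (ENSG00000164400) on that of chromosome 5 at 132073790 to 132076170. The others are on minus strands, IL1A (ENSG00000115008) and IL1B (ENSG00000125538) on chromosome 2 at 112773915 to 112784590 and 112829751 to 112836903. LIF (ENSG00000128342) is on chromosome 22 at 30240447 to 30246851 and PTGS2 (ENSG00000073756) on chromosome 1 at 186671791 to 186680427.

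These genes are classical outputs of inflammatory signalling. CXCL8, CXCL1, CXCL2 and CXCL3 are chemokines that attract neutrophils through the receptors CXCR1 and CXCR2. IL6 and LIF are cytokines that signal through the shared receptor chain gp130, encoded by IL6ST. IL1A and IL1B encode the agonist forms of interleukin 1, CSF2 encodes the myeloid growth factor GM-CSF, and PTGS2 encodes the inducible cyclooxygenase COX-2, which commits arachidonic acid to prostaglandins. Their transcription is known to depend on NF-kB, AP-1 and C/EBP factors, and many of their mRNAs are short-lived because of AU-rich elements. In triple-negative breast cancer lines such as MDA-MB-231 several of them are made without added stimulus.

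Levels are given as CPM, estimated counts scaled to a common column total with TMM factors, and compared between columns of the same gene. The size rule used here asks 3 things of a gene, namely a log2 fold (prior count 2) of 1 or more in either direction, a counting interval that excludes equality, and a mean of 1 CPM or more. No p-value belongs to it. All 10 genes reached a mean of 1 CPM.

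In the column labelled KO1, 7 of the 10 genes were higher than in NC and 1 was lower, where 15.4% of all 14524 genes measured passed as higher and 17.4% as lower. In the column labelled KO2, 2 were higher and 3 lower, against 11.0% and 9.98% of all genes. The median log2 fold of the 10 genes was 2.04 in KO1 and 0.02 in KO2, beside -0.01 and -0.00283 for all measured genes. Between the knockout columns, 7 of the 10 were lower in KO2 than in KO1 and 0 higher, against 11.2% and 14.9% of all genes. Both knockout comparisons use the same NC column. The 10 genes together summed to 749.7 CPM in NC, 1758 CPM in KO1 and 612 CPM in KO2. In bulk RNA, fewer cells of a kind and less RNA per cell cannot be told apart.

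**Figure D1:**
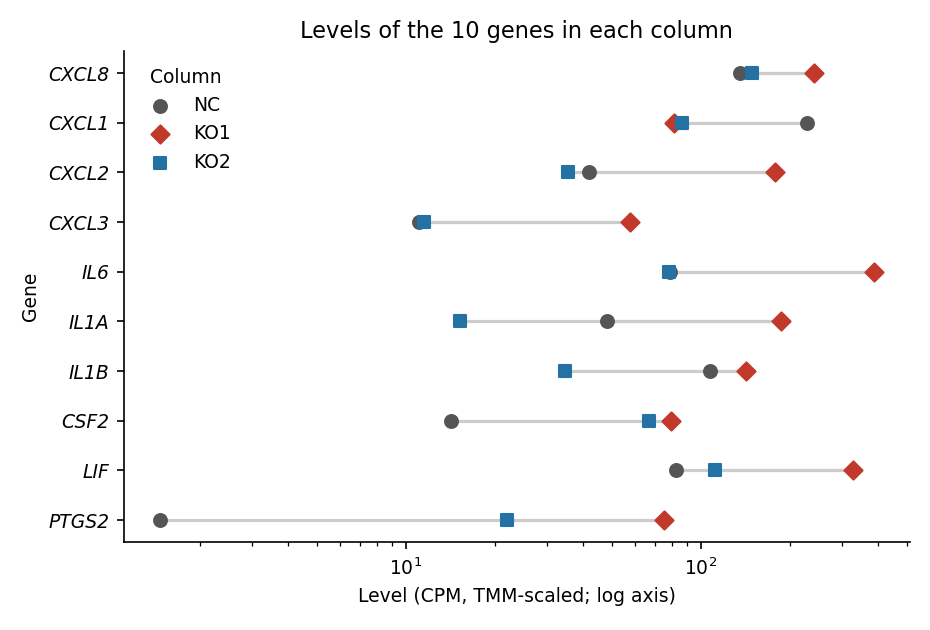
Level of each of the 10 genes (CPM, log axis) in the NC, KO1 and KO2 columns, 1 point per column, with no error since there are no replicates. KO1 was the highest column for every gene shown except CXCL1, and PTGS2 spanned the widest range, from 1.46 to 75.0 CPM.

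A few facts of the whole table bear on these values. Total estimated counts were 25801499 to 26798753 per column. Mitochondrially encoded genes took 12.8%, 20.5% and 16.9% of counts in NC, KO1 and KO2, and their part in the differences was not tested. ARID1A itself was at 77.3 CPM in NC, 45.7 CPM in KO1 and 83.9 CPM in KO2, so neither column passed the size rule for the targeted gene itself, and in KO2 its RNA was not below NC. Directions here belong to the columns as labelled. The cell line's markers VIM, CD44, CAV1, AXL and MSN were abundant in each column (7511, 8458 and 6361 CPM summed), while ESR1 and PGR had 0 counts in NC and KO1 and, in KO2, 14 and 0. Of the other luminal or HER2 markers listed as absent from this line, ERBB2 was at 75.7, 28.0 and 52.4 CPM, GATA3 at 8.93, 15.3 and 15.6 CPM, and FOXA1 had 0, 47 and 30 counts, so that list was not uniformly absent. Of 12 leukocyte markers, 5 had 0 counts in every column, and the pan-leukocyte gene PTPRC had 0, 0 and 4 counts. The summed leukocyte markers ranged from 46.6 CPM in KO1 to 307 CPM in NC, nearly all of it LAPTM5. Summed fibroblast markers ranged from 32.6 to 50.7 CPM and endothelial markers from 3.35 to 7.82 CPM, with DCN, POSTN, ERG and TIE1 at 0 counts throughout. The part of these markers in the results was not tested.

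CXCL8, which encodes interleukin 8, was at 136 CPM in NC, 242 CPM in KO1 and 149.6 CPM in KO2. It was 1.78-fold higher in KO1 (1.71 to 1.86) and 1.10-fold higher in KO2 (1.05 to 1.15), and passed the size rule in neither. CXCL1, a close relative of CXCL2 and CXCL3, differed from NC in the other direction. It was at 229.6 CPM in NC, 81.4 CPM in KO1 and 86.6 CPM in KO2, or 2.82-fold lower (2.68 to 2.97) and 2.65-fold lower (2.53 to 2.78). CXCL1 was the only 1 of the 10 genes that passed as lower in both knockout columns, where 5.65% of all genes did.

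CXCL2 and CXCL3, the closest relatives of CXCL1, were higher in KO1. CXCL2 was at 41.8 CPM in NC, 178 CPM in KO1 and 35.3 CPM in KO2. That is 4.26-fold higher in KO1 (3.99 to 4.55) and 1.18-fold lower in KO2 (1.09 to 1.29). CXCL3 was at 11.1 CPM in NC, 57.5 CPM in KO1 and 11.5 CPM in KO2, 5.18-fold higher in KO1 (4.57 to 5.88), with an interval in KO2 that included equality (0.886 to 1.22). KO1 was thus the column with the highest CXCL2 and CXCL3 and the lowest CXCL1, but CXCL1 was nearly equal in KO1 and KO2. It was 1.06-fold higher in KO2 than in KO1 (1.0006 to 1.13). The chemokine levels could mix where reads fall in sequence that the paralogs share. Of all 50-base stretches of the main transcript, 5.73% for CXCL1, 9.24% for CXCL2 and 5.26% for CXCL3 also occur in transcripts of the other two genes, and 0% for CXCL8.

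The windows around the transcription starts of these 4 chemokine genes are shown because those of CXCL1, CXCL2 and CXCL3 are close copies although the genes differed in direction, with CXCL8 as the more distant relative. Each RefSeq window (GRCh38.p14) holds 250 bases before and 50 bases after the start, 5′ to 3′ on the gene's strand. CXCL8 lies at chr4:73740319-73740618 on the plus strand and CXCL1 at chr4:73869143-73869442 on the plus strand. CXCL2 lies at chr4:74099146-74099445 and CXCL3 at chr4:74038640-74038939, both on the minus strand. Capitals mark matches on either strand to a kB-like sequence, GGNNNTTCC, and to the AP-1 sequence TGANTCA.
CXCL8: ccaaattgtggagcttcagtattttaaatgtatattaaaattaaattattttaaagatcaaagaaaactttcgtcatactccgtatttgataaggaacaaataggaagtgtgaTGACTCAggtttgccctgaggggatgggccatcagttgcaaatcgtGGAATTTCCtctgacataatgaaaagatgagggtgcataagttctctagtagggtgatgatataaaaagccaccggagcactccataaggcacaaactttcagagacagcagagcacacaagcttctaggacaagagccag
CXCL1: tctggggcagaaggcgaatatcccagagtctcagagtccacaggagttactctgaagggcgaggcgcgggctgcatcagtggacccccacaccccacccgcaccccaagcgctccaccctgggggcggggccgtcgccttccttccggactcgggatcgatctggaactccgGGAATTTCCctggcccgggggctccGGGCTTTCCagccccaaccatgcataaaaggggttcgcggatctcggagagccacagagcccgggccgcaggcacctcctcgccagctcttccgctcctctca
CXCL2: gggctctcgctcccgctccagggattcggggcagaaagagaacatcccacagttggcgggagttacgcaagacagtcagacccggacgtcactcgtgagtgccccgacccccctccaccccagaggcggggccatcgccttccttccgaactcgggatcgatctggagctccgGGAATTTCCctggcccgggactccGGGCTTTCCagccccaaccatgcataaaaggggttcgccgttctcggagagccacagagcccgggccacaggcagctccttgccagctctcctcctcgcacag
CXCL3: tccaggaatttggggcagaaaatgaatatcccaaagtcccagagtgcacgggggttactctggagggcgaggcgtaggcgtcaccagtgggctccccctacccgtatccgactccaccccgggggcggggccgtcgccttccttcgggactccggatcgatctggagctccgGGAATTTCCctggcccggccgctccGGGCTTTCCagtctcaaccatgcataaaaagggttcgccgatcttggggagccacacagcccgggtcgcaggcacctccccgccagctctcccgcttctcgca
By global alignment with gaps counted as mismatches, the CXCL1 window was 82.5% identical to that of CXCL3 and 72.1% identical to that of CXCL2. CXCL2 and CXCL3 were 73.8% identical there, and CXCL8 was at most 44.9% identical to any of the other three. CXCL1, CXCL2 and CXCL3 each hold the kB-like matches GGAATTTCC, first base at -78, -77 and -78 from the start, and GGGCTTTCC at -53. CXCL8 holds GGAATTTCC at -91 and the AP-1 match TGACTCA at -137. The letters GGAATTTCC are thus found near the start of all 4 genes, and any link to the direction of their RNA was not tested.

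Over all members, windows were found for 9 of the 10 genes and not for LIF. A kB-like match was present in 6 of the 9 (CXCL8, CXCL1, CXCL2, CXCL3, IL6 and CSF2), against 20.1% of all 35116 windows of that length. The windows of CXCL1, CXCL2 and CXCL3 are close copies with the same kB-like letters, so the 6 are not independent of each other. An AP-1 match was present in 2 of the 9 (CXCL8 and IL1A), against 7.71% of windows, and the C/EBP-like sequence TTGCNNAA in 4 (CXCL2, IL6, IL1B and PTGS2), against 10.5%. The cyclic AMP response element TGACGTCA was in none of the 9 windows and in 1.85% of all windows. All of these were searched on both strands, and no match to one of them overlapped a match to another. IL1A has 2 windows in RefSeq, and both hold its AP-1 matches.

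IL6, the cytokine that drives acute-phase and STAT3 signalling, was at 78.6 CPM in NC, 387 CPM in KO1 and 78.2 CPM in KO2. It was 4.92-fold higher in KO1 (4.69 to 5.15), while the interval in KO2 included equality (0.937 to 1.06). LIF, a cytokine that acts through gp130 and the LIF receptor, was at 82.3 CPM in NC, 328 CPM in KO1 and 112 CPM in KO2. LIF was 3.99-fold higher in KO1 (3.81 to 4.18) and 1.36-fold higher in KO2 (1.29 to 1.43), of which only the first passed. Both gp130 cytokines were highest in KO1, and between the knockout columns IL6 was 4.94-fold (4.72 to 5.18) and LIF 2.93-fold (2.81 to 3.06) lower in KO2.

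The 2 interleukin 1 genes were lower in KO2. IL1A, an agonist that is active as its precursor, was at 47.9 CPM in NC, 187 CPM in KO1 and 15.3 CPM in KO2. It was 3.90-fold higher in KO1 (3.67 to 4.15) and 3.13-fold lower in KO2 (2.80 to 3.49), the only member that passed in opposite directions, as 0.806% of all genes did. IL1B, whose precursor needs cleavage by caspase 1, was at 107 CPM in NC, 143 CPM in KO1 and 34.7 CPM in KO2. IL1B was 1.33-fold higher in KO1 (1.27 to 1.40), short of the rule, and 3.09-fold lower in KO2 (2.87 to 3.32). IL1A thus differed 12.2-fold (11.1 to 13.5) between KO1 and KO2, the widest gap between those columns among the 10 genes.

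CSF2 and PTGS2 passed as higher in both knockout columns, where 6.22% of all genes did. CSF2 was at 14.2 CPM in NC, 79.5 CPM in KO1 and 66.9 CPM in KO2, or 5.61-fold above NC in KO1 (5.03 to 6.27) and 4.72-fold above it in KO2 (4.23 to 5.27). KO2 was 1.19-fold below KO1 for CSF2 (1.11 to 1.27), a direction that turned when counts were scaled by their totals or when TPM was used. PTGS2 counts were 41 (NC), 1726 (KO1) and 616 (KO2), which is 1.46, 75.0 and 22.0 CPM. KO1 was 51.2-fold (37.6 to 71.7) and KO2 15.02-fold (10.9 to 21.1) above NC, and the folds rest on the 41 control counts. PTGS2 had the highest fold of the 10 genes in both comparisons, at percentile 99.7 of all measured genes in KO1 and 99.0 in KO2.

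**Figure D2:**
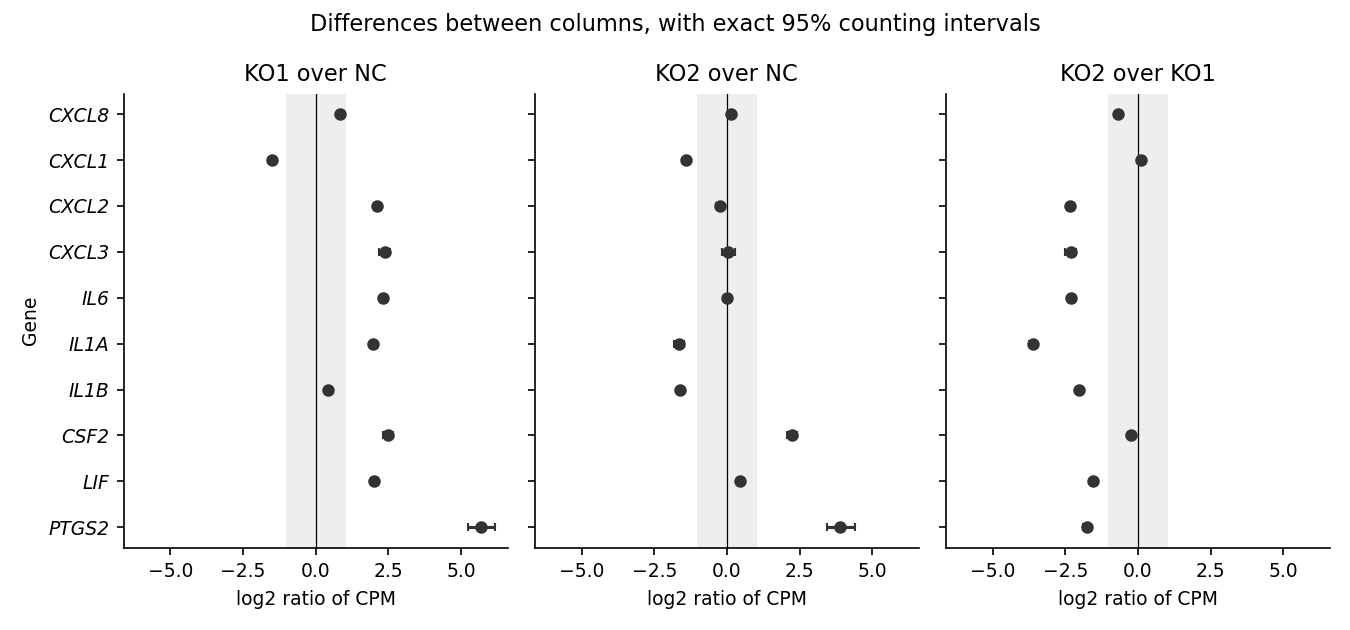
Differences between columns as the log2 ratio of CPM for each of the 10 genes, with exact 95% counting intervals, for KO1 over NC, KO2 over NC and KO2 over KO1; grey marks less than 2-fold. In the left panel 7 genes lie above the grey band and CXCL1 below it, in the middle panel CSF2 and PTGS2 lie above and CXCL1, IL1A and IL1B below, and in the right panel 7 lie below.

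The only test between genotypes that the table allows sets both knockout columns as 1 group of 2 against NC, with 1 residual degree of freedom and with the spread of NC taken to equal theirs. By edgeR's quasi-likelihood test it called 0 of the 10 genes at an adjusted p of 0.05, beside 27 of 18289 genes or 0.148%. PTGS2 had an adjusted p of 0.121, CSF2 of 0.217 and CXCL1 of 0.456 (edgeR), and the other seven lay between 0.784 and 0.989. These 3 genes were also those with an unadjusted p under 0.05 (edgeR, 0.000887, 0.00331 and 0.0188), as 1409 genes had in all. Each of the 3 lay on the same side of NC in both knockout columns. DESeq2 called 2 of the 10, PTGS2 (adjusted p = 4.8e-06) and CSF2 (adjusted p = 0.0410), among 306 of the 17094 genes it gave an adjusted p, or 1.79%. Without a low-count filter edgeR called PTGS2 (adjusted p = 2.59e-05) among 493 of 28652 genes, or 1.72%. Replicate cultures do not enter these p-values. They rest on the spread of the 2 knockout columns and on a spread shared over all genes tested, so they change with the genes kept.

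Levels can be compared between genes only per length, for which the deposited TPM were summed over transcripts. In NC the order began with CXCL1 at 341 TPM, then CXCL8 at 132, IL6 at 108 and IL1B at 108 TPM, and ended with CXCL3 at 16.6 and PTGS2 at 0.510 TPM. In KO1 it began with IL6 at 423 TPM, then CXCL2 at 196 and CXCL8 at 181 TPM, with CXCL1 in place 8 at 92.6 TPM. In KO2 it began with CXCL8 at 152 TPM, CSF2 at 142 and CXCL1 at 134 TPM, and ended with IL1A at 12.0 and PTGS2 at 8.51 TPM. PTGS2 was last in all 3 columns although its fold was the highest, and CSF2 stood at place 8, 4 and 2. With 1 column per group, neighbours in these orders cannot be tested.

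IL6 was the gene whose transcripts differed most in makeup between columns. For CXCL8, CXCL1, IL1B, LIF and PTGS2 a single transcript held at least 92.9% of the gene's counts in each column, and IL1A and CSF2 have 1 transcript each. For IL6 the transcript ENST00000258743 held 61.0% of the NC counts, 83.6% of those in KO1 and 2.74% of those in KO2. It was at 64.95 TPM in NC, 338 TPM in KO1 and 3.02 TPM in KO2. In counts that is 6.73-fold higher in KO1 (6.35 to 7.14) and 22.4-fold lower in KO2 (17.3 to 29.5). A second transcript, ENST00000404625, was at 19.8 TPM in NC, 10.2 TPM in KO1 and 65.6 TPM in KO2, and was 3.17-fold higher in KO2 (2.88 to 3.50). The pair together came to 67.0 CPM in NC, 336 CPM in KO1 and 62.3 CPM in KO2. IL6 as a gene was thus near its NC level in KO2, while 76.9% of its counts there were assigned to ENST00000404625. The other 7 transcripts all start at or downstream of the start of ENST00000258743. They summed to 23.35 TPM in NC, 74.7 TPM in KO1 and 30.7 TPM in KO2, and so were not lower in KO2 as a set.

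**Figure D3:**
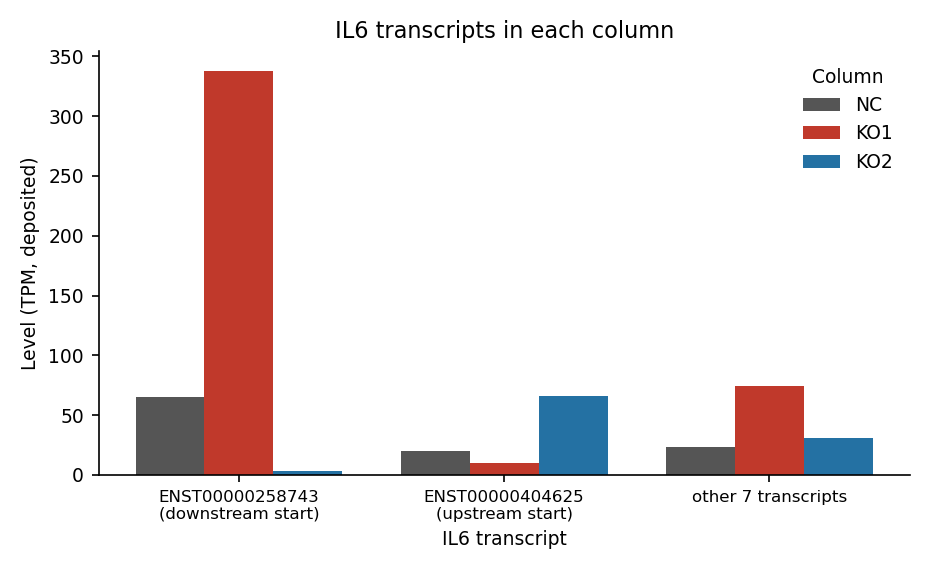
Deposited TPM of the 2 most abundant IL6 transcripts and of the other 7 summed, with 1 bar per column and no error. The transcript with the downstream start is the tallest bar in NC (64.95 TPM) and KO1 (338 TPM), and the one with the upstream start is the tallest in KO2 (65.6 TPM).

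By GENCODE release 29, both IL6 transcripts encode the same protein and differ at their 5′ ends. ENST00000258743 has 5 exons and starts at chromosome 7, 22727147 (hg38). ENST00000404625 has 6 exons and starts 1263 bases upstream, with a first exon of 375 bases (22725884 to 22726258) joined to a shortened form of the other's first exon (22727179 to 22727281). They share 1150 exonic bases, and only 32 bases of the former and 377 of the latter are unshared within the pair. How fragments were divided among these overlapping transcripts is not given in the sources used here. Within the pair, the estimates rest on those bases and on the splice junction after the first exon of ENST00000404625. The RefSeq promoter window of IL6, chr7:22726950-22727249 on the plus strand, is printed because it spans the downstream start. The window begins 692 bases beyond the end of the upstream exon. Its RefSeq start lies within the first exon of ENST00000258743, downstream of that transcript's GENCODE start and of its 32 unshared bases. Capitals mark its kB-like match, GGATTTTCC, at -72 from the RefSeq start.
IL6: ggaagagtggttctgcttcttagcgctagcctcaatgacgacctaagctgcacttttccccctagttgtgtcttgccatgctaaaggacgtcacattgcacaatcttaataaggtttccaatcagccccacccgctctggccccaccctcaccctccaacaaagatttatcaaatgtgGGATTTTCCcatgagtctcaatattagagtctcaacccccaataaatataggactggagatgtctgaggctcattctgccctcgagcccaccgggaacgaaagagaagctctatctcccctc
This window also holds a C/EBP-like match, TTGCACAA, at -155, and no AP-1 match as searched. The antisense gene IL6-AS1, which overlaps IL6, had 16, 32 and 9 counts in NC, KO1 and KO2, and LIF-AS1 and LIF-AS2 had at most 20. The library kit marks strand, but whether the counting used it is not given in the sources used here.

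CXCL2 and CXCL3 also have several transcripts, and the main one was highest in KO1, as the gene was. ENST00000508487 of CXCL2 was at 46.9 TPM in NC, 167 TPM in KO1 and 42.9 TPM in KO2. ENST00000296026 of CXCL3 held 56.3%, 74.6% and 62.8% of the gene's counts in NC, KO1 and KO2, and was at 9.28, 49.3 and 11.2 TPM.

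The 4 chemokine genes lie on chromosome 4, with 357 kb between the lowest coordinates of CXCL8 and CXCL2, and their neighbours add to the picture of that region. MTHFD2L, a mitochondrial folate enzyme just beyond CXCL2, was at 13.001 CPM in NC, 22.8 CPM in KO1 and 13.96 CPM in KO2. EREG, which encodes the EGF receptor ligand epiregulin, was at 24.2, 107 and 27.5 CPM, a log2 fold of 2.14 in KO1 and 0.18 in KO2. On the other side ANKRD17 was at 78.5, 74.2 and 89.5 CPM, while COX18 was at 20.5, 1.13 and 20.3 CPM. CXCL5 had 20, 6 and 0 counts, PF4 6, 0 and 4, and CXCL6 none in any column. CXCL3, CXCL2 and EREG were thus each higher by a log2 fold of over 2 in KO1 and within 0.25 of NC in KO2, with CXCL1 lower in both. The 65 other measured genes within 10 Mb had a median log2 fold of -0.01 for KO1 and of 0.05 for KO2.

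**Figure D4:**
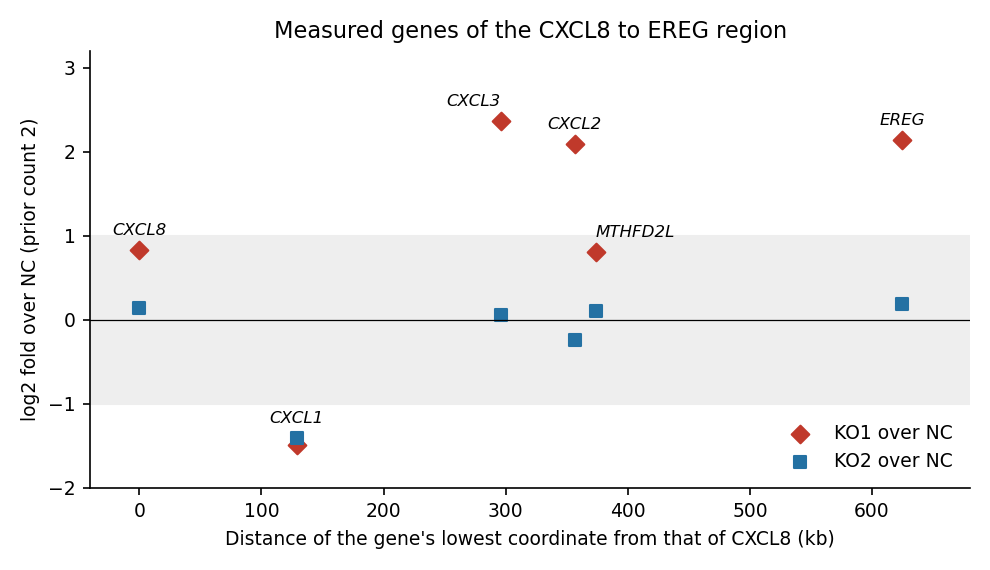
Log2 fold over NC, with a prior count of 2, of each measured gene from CXCL8 to EREG against the distance of its lowest coordinate from that of CXCL8 in kb, for KO1 and KO2; grey marks less than 2-fold. CXCL3, CXCL2 and EREG lie above 2 in KO1 and near 0 in KO2, and both points of CXCL1 lie below -1.

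Among the nearest measured neighbours of the other members, ODR4 and MTMR3 were those that passed in both KO1 and KO2. For IL1A and IL1B, CKAP2L was at 92.7, 70.1 and 68.4 CPM in NC, KO1 and KO2, and SLC20A1 at 215, 301 and 309.8 CPM. IL37, another gene of the interleukin 1 cluster, was higher in KO1, at 1.04, 2.39 and 0.714 CPM. For CSF2, FNIP1 was higher in KO1, at 62.2, 127 and 107 CPM, and RAPGEF6 was higher in KO2, at 16.5, 20.8 and 38.5 CPM, while P4HA2, at 33.5, 34.3 and 53.3 CPM, and PDLIM4 passed in neither. For PTGS2, ODR4 was at 14.4, 37.1 and 31.6 CPM. On its other side the nearest measured gene, RGS2, lay 6135 kb away and was higher in KO1, at 4.29, 10.3 and 8.14 CPM. PLA2G4A lies nearer to PTGS2 than RGS2 but had a mean under 1 CPM. Beside IL6, the antisense gene ENSG00000232949 was higher in KO1, at 0.679, 1.65 and 0.857 CPM. For LIF, MTMR3 was at 31.4, 5.26 and 7.32 CPM, lower in both knockout columns, where LIF was 3.99-fold and 1.36-fold above NC and passed in KO1 alone. Also beside LIF, CASTOR1 was lower in KO2, at 6.18, 4.65 and 1.46 CPM, and ENSG00000248751 was higher there, at 0.321, 0.261 and 5.14 CPM. Within 10 Mb the median log2 folds of other genes were 0.77 and 0.73 around IL6, 0.38 and 0.41 around CSF2, -0.32 and -0.46 around the interleukin 1 genes, -0.38 and -0.33 around LIF, and 0.06 and 0.05 around PTGS2.

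Other cytokines did not share 1 direction with these genes. Of 16 measured members of a list of 27 other chemokines and cytokines, KO1 had 3 higher and 6 lower, KO2 had 1 higher and 4 lower, and 4 were lower in both. The median log2 folds were -0.01 and -0.13. Beside this list and those below, 15.4% of all measured genes passed as higher in KO1 and 17.4% as lower. In KO2 these shares were 11.0% and 9.98%. In both columns 6.22% of all genes were higher and 5.65% lower. CCL5, a T cell and monocyte attractant, was at 17.6 CPM in NC, 3.65 CPM in KO1 and 2.28 CPM in KO2. CCL2, a monocyte attractant, was at 4.75 CPM in NC, 0 counts in KO1 and 0.678 CPM in KO2, and IL32 at 35.3, 13.955 and 8.39 CPM. Genes higher in KO1 alone, named after their values were seen, were IL24, at 4.57, 40.6 and 4.71 CPM, CCL20, at 3.14, 9.09 and 1.57 CPM, and IL23A, at 1.36, 5.65 and 1.61 CPM. Lower in KO1 alone, and named likewise, were CSF1, at 428, 138 and 389 CPM, and CCL28, at 17.9, 8.13 and 20.3 CPM. The 1 that was higher in KO2 was IL11, a gp130 cytokine named on the same footing, at 26.5, 47.3 and 105 CPM. Of 16 other CXC chemokines and receptors 3 were measured, and CXCL16, at 2.93, 6.56 and 4.36 CPM, was the 1 that passed, as higher in KO1.

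The receptors for the 4 chemokines were near or at 0, with 0 counts for CXCR2 in every column and at most 2 for CXCR1. Of 12 measured cytokine receptors of 16 listed, KO1 had 2 higher and 4 lower, and KO2 had 1 higher and 4 lower, with medians of -0.14 and -0.20. IL6R, the ligand-binding chain for IL6, was higher in both columns but low, at 0.50004, 1.35 and 1.46 CPM. IL1R1, which binds both interleukin 1 forms, was lower in both, at 21.8, 2.87 and 6.82 CPM, as were TNFRSF1B, at 23.8, 5.78 and 2.43 CPM, and IL7R, at 88.0, 1.09 and 10.9 CPM. IL6ST, named after its values were seen, was at 173, 552 and 335 CPM. CSF2RB, the signalling chain for GM-CSF, had 6, 0 and 0 counts.

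Of 10 measured genes of interleukin 1 maturation and antagonism, 1 was higher and 5 lower in KO1 and none passed in KO2 (medians -0.82 and 0.01). CASP4, an inflammatory caspase, was at 22.1, 89.4 and 30.6 CPM in NC, KO1 and KO2, and SIGIRR, a negative regulator of interleukin 1 receptors, at 7.0006, 1.30 and 3.9986 CPM. CASP1, the protease that matures IL1B, was at 5.04, 1.17 and 4.53 CPM.

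No other measured gene of the prostaglandin pathway passed as higher, as PTGS2 did. Of 11 measured genes of 22 listed, 6 were lower in KO1 and 5 in KO2, 4 in both, and 0 were higher in either (medians -1.02 and -0.34). Of all measured genes, 17.4% were lower in KO1, 9.98% in KO2 and 5.65% in both. PTGES and CBR1, named after their values were seen, were above NC in KO2 but short of the rule. PTGES was at 116, 89.9 and 163 CPM in NC, KO1 and KO2. CBR1 was at 35.5, 17.4 and 62.9 CPM, and passed as lower in KO1. Listed genes under a mean of 1 CPM went both ways. In NC, KO1 and KO2, counts were 10, 11 and 48 for PLA2G4A, 6, 17 and 32 for PTGFR, and 8, 29 and 5 for PTGER1. They were 25, 0 and 13 for PTGER2 and 27, 0 and 0 for PTGIR. AKR1C3, a prostaglandin F synthase, fell from 102 CPM to 2.9997 and 7.10 CPM (edgeR adjusted p = 0.0463), the only call by that test in this list. AKR1B1, which also has prostaglandin F synthase activity, was at 1248, 139 and 241 CPM, and PTGR1, a prostaglandin reductase, at 153, 31.8 and 39.95 CPM. The constitutive cyclooxygenase PTGS1 was at 2.61, 0.348 and 0.99965 CPM, so that KO1 and KO2 had more PTGS2 and less PTGS1 RNA than NC.

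Genes of the signalling routes to these promoters were mixed. Of 29 measured NF-kB and interleukin 1 receptor signalling genes, KO1 had 4 higher and 4 lower, and KO2 had 3 higher and 3 lower (medians 0.15 and 0.30). Of all measured genes, 15.4% passed as higher and 17.4% as lower in KO1, and 11.0% and 9.98% in KO2. The counts of the NF-kB list were near these shares in both columns. RELA, the main activating NF-kB subunit, was lower in both columns, at 245 CPM in NC, 89.3 CPM in KO1 and 52.4 CPM in KO2, as was TRAF2, at 66.3, 25.2 and 32.1 CPM. BIRC3, an inhibitor of apoptosis that NF-kB induces, was higher in both, at 13.4, 32.5 and 99.7 CPM. Of 14 AP-1 and C/EBP factors KO1 had 4 higher and 0 lower, and KO2 had 2 higher and 5 lower (medians 0.51 and -0.41). FOS was at 2.07, 12.1 and 5.53 CPM and FOSB at 0.393, 3.87 and 1.29 CPM. CEBPB, a C/EBP factor known to act on the IL6 promoter, was named after its values were seen as the 1 gene of the list in opposite directions, at 270.4 CPM in NC, 693 CPM in KO1 and 114 CPM in KO2.

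**Figure D5:**
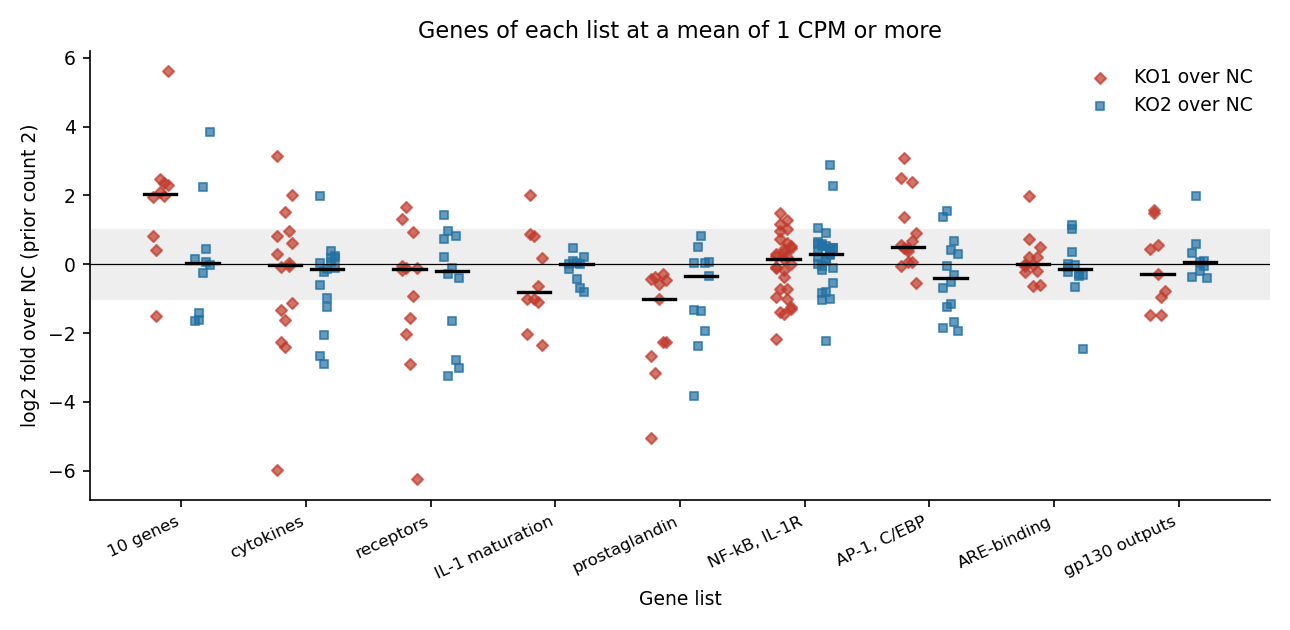
Log2 fold over NC, with a prior count of 2, of every gene at a mean of 1 CPM or more in the 10-gene list and in 8 related lists, for KO1 and KO2; points are genes, black bars are medians and grey marks less than 2-fold. The 10 genes have a median of 2.04 in KO1 and 0.02 in KO2, and the prostaglandin list, at -1.02 and -0.34, has no gene above 1.

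AU-rich elements, to which proteins of the ZFP36 family bind and shorten mRNA life, were read from the transcripts. The nonamer TTATTTATT occurred after the stop codon in the main transcript of 8 of the 10 genes, all but IL6 and IL1A, against 8.89% of 12311 measured coding genes and 7.24% of the 7986 whose sequence there was within the members' range of lengths. CXCL2 had 5 of them, CXCL1 and CSF2 3 each, and IL1B and LIF 2 each. The shorter pentamer ATTTA occurred 5 to 22 times per gene, with a median of 7 against 2 for all, and PTGS2 had the most. These counts describe the letters and not binding. Of 12 measured RNA-binding and decay genes KO1 had 1 higher and 0 lower, and KO2 had 2 higher and 1 lower (medians -0.00467 and -0.15). ZFP36L1, a member of the ZFP36 family, was higher in both columns, at 174 CPM in NC, 679.8 CPM in KO1 and 352 CPM in KO2.

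Of 9 measured genes of gp130 signalling, KO1 had 2 higher and 2 lower, and KO2 had 1 higher (medians -0.28 and 0.06). JAK2, a kinase bound to gp130, was higher in both columns, at 4.07, 11.6 and 16.4 CPM. SOCS3, the feedback inhibitor that STAT3 induces, was named after its values were seen, at 51.4, 154 and 77.4 CPM. It was highest in KO1, where the list had a median of -0.28 and 2 genes lower, so SOCS3 does not stand for the list. Its relation to IL6 and LIF was not tested.

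The 2 members with the highest mean CPM were IL6 and CXCL8, and their nearest genes were sought over the pair of log2 folds against NC among coding genes at a mean of 5 CPM or more. For IL6 the nearest was LRRC49, at 6.21, 29.3 and 6.25 CPM, followed by CXCL3, which is itself 1 of the 10 genes, COX19, MAP1LC3B and TTPAL, at distances of 0.07 to 0.17 in log2 units. For CXCL8 the nearest were HMBOX1, MGLL, IMPACT, F8A2 and URGCP, at distances of up to 0.0133. With 3 columns such a likeness rests on 2 differences that share NC.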

How the data were processed

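RNA of control and ARID1A knockout MDA-MB-231 cells was extracted with Trizol and made into stranded total RNA libraries, per the labels' protocols. Tools named in the submitters' processing notes are CASAVA, Bowtie2 and featureCounts, with the build hg38, and neither versions nor roles are given. The Count columns of the table, per the file headers, were treated as the authors' estimated counts per transcript, deposited as whole numbers. The deposited TPM are the authors' length-scaled values, per the file headers. The 3 FPKM columns were not used. Estimated counts summed to 26798753 (NC), 25801499 (KO1) and 26144758 (KO2).

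Counts were summed per gene ID and scaled by TMM over genes kept by filterByExpr (edgeR 4.0.16, R 4.3.3). Intervals of folds are Clopper-Pearson intervals conditional on the summed count. No molecular identifiers are named in the labels, so intervals cover counting error only. The test used edgeR's quasi-likelihood fit (two-sided, robust, Benjamini-Hochberg over all genes tested) and was set beside DESeq2 1.42.0. Symbols came from current gene names, transcript structures from GENCODE release 29 and promoter windows from RefSeq. GENCODE places 196250 of the 199167 transcripts at the deposited position.

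The members, the lists and the rules were chosen with earlier results of these data known. The text names all 10 members, and of each other list up to 3 genes per direction that passed in both knockout columns, or the highest and lowest where none did. It also names neighbours from the 2 nearest measured genes on either side of each member, the measured genes of the CXCL8 to EREG region, and the 5 nearest genes by pattern for 2 members. Other names are given as chosen after their values were seen, or as single receptors and partners of members. Leaving out replicates was not possible.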

Additional observations from a re-analysis of the deposited data

Results flagged for a closer look

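Genes whose knockout columns lay on opposite sides of NC, with counting intervals that excluded equality on both sides, are given here, and with 1 column per group the difference was not tested between cultures. The share of all genes that meet this criterion was not counted, and counting intervals of abundant genes exclude equality at small folds. By the size rule on both sides 0.806% of all genes passed, and of the members IL1A alone. IL1A was higher in KO1 and lower in KO2, a log2 fold of -3.60 for KO2 over KO1. IL1B had a log2 fold of -2.04 for KO2 over KO1, with KO1 1.33-fold above NC. CXCL2 had a log2 fold of -2.33 for KO2 over KO1, with KO2 1.18-fold below NC. The IL6 transcript ENST00000258743 had a log2 ratio of -7.24 for KO2 over KO1. Its estimate rests on the 32 exonic bases that ENST00000404625 lacks, and the splice junction that sets the pair apart belongs to ENST00000404625. ENST00000401651 and ENST00000426291 start at the same base as ENST00000258743, so those bases may not be its own alone.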

How the results depend on the processing

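No paired analysis was possible because the columns carry no replicate number, and for the same reason no replicate could be left out. The number of members that passed the size rule was 8 for KO1 against NC, 5 for KO2 against NC and 7 for KO2 against KO1. Over 11 other settings each (scaling, low-value filter, prior count, fold minimum, deposited TPM, rounding and the main transcript alone) these ranged from 7 to 9, from 4 to 6 and from 6 to 8. The main-transcript setting added IL6 as lower in KO2, at a log2 fold of -4.43 against -0.01. IL6 in KO2 also turned to a log2 fold of up to 0.10 when scaled by total counts or by nuclear protein-coding counts. CSF2 between KO2 and KO1 turned from -0.25 to at most 0.18 with total counts or TPM. Total counts shifted the median log2 fold of all genes by -0.23 in KO1, and TPM by -0.37. By the test of both knockout columns against NC, 0 members were called with edgeR, 2 with DESeq2 and 1 with edgeR without a low-count filter, and 0 with total counts, nuclear protein-coding genes, rounding taken off or no robust shrinkage. The last of these was chosen after seeing the data. Over these settings the number of calls among all genes ranged from 0 to 493, and the adjusted p of PTGS2 from 4.8e-06 to 0.411. The cause of these differences was not tested. PTGS2 is limited by its 41 counts in NC.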
